A study of Mus musculus with 8 samples.

Results

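Expression of 10 genes that mark or regulate epithelial-mesenchymal transition (EMT) was compared between murine mammary tumours with and without sequestered miR-21. The genes were the cadherins Cdh1 and Cdh2, the intermediate filament genes Vim and Nes, the matrix gene Fn1 and the transcription factor genes Snai1, Snai2, Zeb1, Zeb2 and Twist1. They are grouped by their known function but were chosen with earlier results of these data known. They make up 10 of the 27179 genes in the deposited table. All 10 passed the filter on low counts. Cdh1, Cdh2, Fn1, Snai2 and Zeb2 were higher in miR-21-KD tumours, Vim, Nes and Twist1 were lower, and Zeb1 and Snai1 did not pass the test.

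Whole primary tumours grew in female BALB/c mice after the injection of 100000 cells of 4T1.13, a metastatic line derived from a BALB/c mammary carcinoma. The 4 vector control tumours (4T1.13-VC, here VC) came from cells with a lentiviral vector that carries a scrambled sequence. The other 4 tumours (4T1.13-miR-21-KD, here miR-21-KD) came from cells in which the same type of vector expresses an RNA that binds and sequesters mature miR-21. Both lines carried the vector's fluorescent and drug resistance markers, and each was a pool of clones. The hosts were immunocompetent, and the stroma and leukocytes they add to a whole tumour did not carry the vector. The labels give day 14 for the tumours, whereas the study's methods give an earlier day for their recovery. Each group holds 4 separate tumours numbered 1 to 4, and the tests measure the spread between these tumours.

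The depth was similar, with 12134849 to 13592695 counted reads in VC and 12550898 to 12783800 in miR-21-KD tumours. A count of 0 allows up to 3 counts, which is 0.221 to 0.245 CPM (reads of a gene relative to the TMM-scaled size of the library), and this limit covers counting error only. The gene of the targeted miRNA, Mir21a, had 0 counts in every tumour, and since the vector acts on the mature miRNA these counts do not check the labels. Of 14382 genes tested, 5626 passed an adjusted p of 0.05 in the quasi-likelihood test of edgeR, which is 39.1% of them. The calls were split into 2826 higher (19.6%) and 2800 lower (19.5%) in miR-21-KD, with a median log2 fold change of -0.01. Without VC replicates 2 or 3 or miR-21-KD replicates 1, 3 or 4 the higher calls numbered 1449 to 1982 and the lower calls 1487 to 1975. The 7 mammary epithelium markers examined were all detected in both groups.

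During EMT, epithelial cells give up the junctions built on E-cadherin and take on mesenchymal features, among them N-cadherin, vimentin and a fibronectin matrix. Transcription factors of the Snail, ZEB and Twist families bind E-box motifs and repress epithelial genes such as Cdh1. In a tumour the mesenchymal genes are also transcribed by fibroblasts, pericytes and leukocytes, so that whole-tumour RNA mixes carcinoma and host cells. Fewer cells of a type and less RNA per cell cannot be told apart in such samples.

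The sequence of the sequestered miRNA is given first, since it defines the groups. The mature miRNA, taken from RefSeq (GRCm38.p6, chr11:86584120-86584141, minus strand), is shown with its seed, bases 2 to 8, in capitals.
mmu-miR-21a-5p: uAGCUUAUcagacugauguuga
Its seed match, ATAAGCT, was searched on the transcribed strand of the longest annotated 3′ untranslated region of each gene (GENCODE M21). It was in 0 of the 10 members and in 1036 of 13347 tested genes (7.76%).

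RefSeq start regions, from 250 bases before to 50 bases after the transcription start, were examined for Vim, Nes, Twist1, Snai1 and Zeb2. Zeb2 had 4 start sites. The E-box CANNTG, which reads as the same motif on both strands, was in 1 of these 8 windows, against 72.3% of all 32851 windows of this length. The 8 windows stand for 5 genes, and 2 of the Zeb2 windows overlap for most of their length. Windows of Cdh1, Cdh2, Fn1, Snai2 and Zeb1 were not examined. The narrower forms CACCTG and CAGGTG, which are reverse complements and cases of CANNTG, were in 20.2% of all windows. The windows of Vim, Nes and Twist1, the members that were lower, and of Snai1, which holds the motif, are printed 5′ to 3′ in GRCm38.p6, with the E-box in capitals. They lie at chr2:13574061-13574360 for Vim, chr3:87970843-87971142 for Nes, chr12:33957421-33957720 for Twist1 and chr2:167537945-167538244 for Snai1, all on the plus strand.
Vim: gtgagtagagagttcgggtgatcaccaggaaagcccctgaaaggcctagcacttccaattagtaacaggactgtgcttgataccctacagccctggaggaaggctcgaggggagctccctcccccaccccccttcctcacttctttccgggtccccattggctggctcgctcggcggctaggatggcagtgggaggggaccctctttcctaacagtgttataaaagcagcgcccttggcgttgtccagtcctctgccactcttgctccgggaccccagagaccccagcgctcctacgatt
Nes: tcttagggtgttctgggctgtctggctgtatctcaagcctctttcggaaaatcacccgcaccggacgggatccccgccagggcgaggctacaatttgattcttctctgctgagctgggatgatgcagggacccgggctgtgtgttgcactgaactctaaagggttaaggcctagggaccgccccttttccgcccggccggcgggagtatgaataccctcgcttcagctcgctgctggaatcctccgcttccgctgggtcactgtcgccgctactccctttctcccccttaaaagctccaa
Twist1: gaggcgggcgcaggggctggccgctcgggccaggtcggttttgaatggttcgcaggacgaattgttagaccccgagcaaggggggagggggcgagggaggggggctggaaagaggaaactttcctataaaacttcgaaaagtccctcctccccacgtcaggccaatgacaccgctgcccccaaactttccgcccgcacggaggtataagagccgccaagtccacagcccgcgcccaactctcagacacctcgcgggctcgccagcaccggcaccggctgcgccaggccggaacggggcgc
Snai1: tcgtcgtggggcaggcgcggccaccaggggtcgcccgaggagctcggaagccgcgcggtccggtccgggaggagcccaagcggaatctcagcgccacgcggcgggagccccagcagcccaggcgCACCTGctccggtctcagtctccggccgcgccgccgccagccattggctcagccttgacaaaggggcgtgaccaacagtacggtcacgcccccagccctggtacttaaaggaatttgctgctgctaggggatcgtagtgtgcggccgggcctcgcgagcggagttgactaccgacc
The motif in the Snai1 window is CACCTG. A motif in a window is a description of its letters, and binding was not measured.

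Of the 10 members, 8 passed the threshold, where 39.1% of all tested genes did. The members were chosen with earlier results of these data known, so that comparisons with all genes only describe them. Higher calls numbered 5, against a background of 19.6%, and lower calls numbered 3, against 19.5%. In the same 8 members the values of the groups did not overlap, against 35.2% of the genes tested. Among the members the log2 fold changes had a median of 0.53, and the median of its absolute size was 0.99, against 0.37 over all genes. A log2 change larger than 1 in either direction was reached by 5 members and by 17.8% of the genes tested. Without VC replicate 2 only 2 members were called higher, and without VC replicate 3, miR-21-KD replicate 1 or miR-21-KD replicate 3 the number was 3, while lower calls stayed at 2 or 3.

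**Figure D1:**
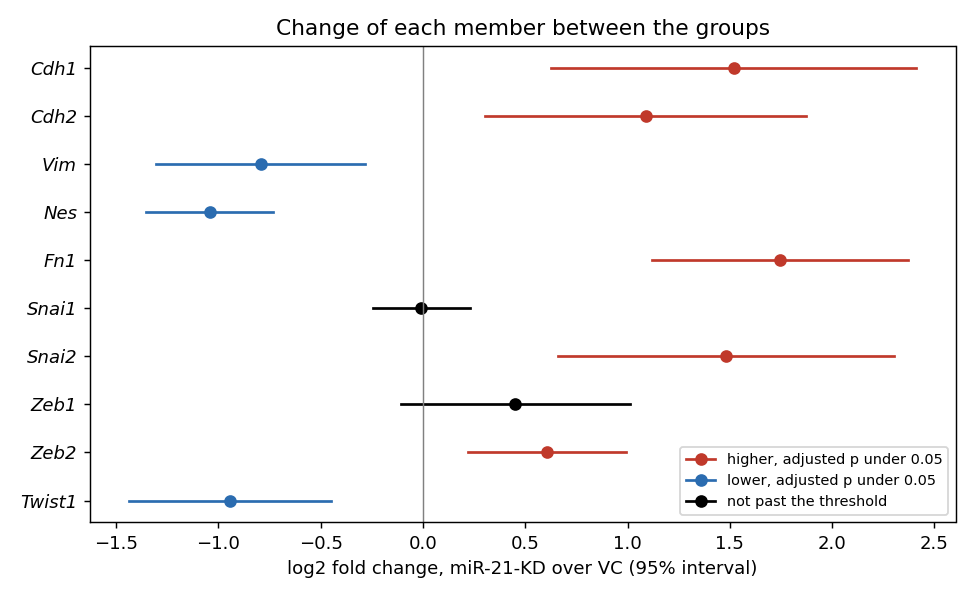
Log2 fold change of each member in miR-21-KD over VC tumours (points) with its 95% interval (lines), from the quasi-likelihood test of edgeR; colours show whether the adjusted p was under 0.05. The intervals of Zeb1 and Snai1 include 0, Fn1 lies farthest to the right at 1.75 and Nes farthest to the left at -1.04.

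Both cadherins were higher in miR-21-KD tumours. Cdh1, the epithelial cadherin, rose 2.87-fold and Cdh2, the N-cadherin that replaces it in many mesenchymal cells, rose 2.13-fold. Cdh1 (Entrez 12550, GRCm38 chr8:106603351-106670246, plus strand) had 74.2, 33.4, 48.5 and 16.8 CPM in VC replicates 1 to 4 and 140.0, 89.2, 147 and 119.7 CPM in miR-21-KD replicates 1 to 4. Each miR-21-KD tumour lay above each VC tumour, and VC replicate 4 was the lowest of all. The means were 43.2 ± 24.4 and 124 ± 25.9 CPM (SD, n = 4 each), with a log2 fold change of 1.52 (SE 0.39, 95% interval 0.63 to 2.41, adjusted p = 0.0185, edgeR). Without VC replicate 2 the adjusted p of Cdh1 was 0.0537, with a log2 fold change of 1.41.

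Cdh2 was expressed at a low level, with 16 to 90 reads per tumour. Cdh2 (Entrez 12558, GRCm38 chr18:16588877-16809246, minus strand) had 3.61, 1.28, 1.97 and 2.53 CPM in VC and 7.27, 4.17, 4.71 and 3.91 CPM in miR-21-KD replicates 1 to 4. The groups did not overlap, although VC replicate 1 came close to miR-21-KD replicate 4. The means were 2.35 ± 0.988 and 5.02 ± 1.54 CPM (SD, n = 4 each), with a log2 fold change of 1.09 (SE 0.35, 95% interval 0.31 to 1.87, adjusted p = 0.0360, edgeR). This call was lost without any 1 of 6 tumours, namely VC replicates 2 (adjusted p = 0.0797), 3 (0.0966) and 4 (0.0549) and miR-21-KD replicates 1 (0.0931), 3 (0.0687) and 4 (0.0555). No other member lost its call in as many of these 8 fits.

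The genes of the intermediate filament proteins vimentin and nestin were both lower in miR-21-KD tumours. Vimentin is the filament of most mesenchymal cells and nestin marks progenitor cells of several lineages. Vim (Entrez 22352, GRCm38 chr2:13573927-13582826, plus strand) had 6153, 6021, 6549 and 4828 CPM in VC and 2251, 4640.1, 3731 and 2973 CPM in miR-21-KD replicates 1 to 4. VC replicate 4 and miR-21-KD replicate 2 lay close together, but the groups did not overlap. The means were 5888 ± 741 and 3399 ± 1025 CPM (SD, n = 4 each), and Vim fell by 0.79 on the log2 scale (SE 0.23, 95% interval -1.30 to -0.28, adjusted p = 0.0248, edgeR), which made it 1.73-fold higher in VC. The adjusted p of Vim was 0.0517 without VC replicate 1, 0.0612 without VC replicate 2, 0.0687 without VC replicate 3 and 0.0715 without miR-21-KD replicate 4.

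Nes had the lowest fitted biological coefficient of variation of the members that passed the test. Nes (Entrez 18008, GRCm38 chr3:87971078-87980451, plus strand) had 111, 129, 112 and 106 CPM in VC and 47.9, 71.1, 54.4 and 49.0 CPM in miR-21-KD replicates 1 to 4. The groups were well apart, with miR-21-KD replicate 2 again nearest to VC. The means were 115 ± 10.1 and 55.6 ± 10.7 CPM (SD, n = 4 each), and Nes fell by 1.04 on the log2 scale (SE 0.14, 95% interval -1.35 to -0.73, adjusted p = 0.00501, edgeR). The call held without each tumour in turn, with an adjusted p of at most 0.0224.

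Fn1, which encodes the matrix glycoprotein fibronectin, showed the largest change of the 10 genes and was 3.35-fold higher in miR-21-KD tumours. Fn1 (Entrez 14268, GRCm38 chr1:71585520-71653200, minus strand) had 3635, 2437, 1985 and 2695 CPM in VC and 10914, 5462, 11332 and 8355 CPM in miR-21-KD replicates 1 to 4. No tumours of the groups overlapped, and miR-21-KD replicate 2 was the lowest of its group. The means were 2688 ± 696 and 9016 ± 2710.0 CPM (SD, n = 4 each), with a log2 fold change of 1.75 (SE 0.28, 95% interval 1.12 to 2.37, adjusted p = 0.00585, edgeR). The adjusted p of Fn1 stayed at or under 0.0244 without each tumour in turn. Exons of Fn1 share bases with the antisense gene Apol7d, and the strand setting of the counting was not given in the sources used here, so reads of the overlap cannot be told apart.

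The transcription factor genes did not move together. Snai2 and Zeb2 were higher in miR-21-KD tumours, Twist1 was lower, and Snai1 and Zeb1 did not pass the test. Snai1 encodes Snail, a zinc finger repressor of Cdh1. Snai1 (Entrez 20613, GRCm38 chr2:167538195-167542814, plus strand) had 32.7, 31.9, 35.7 and 31.8 CPM in VC and 28.9, 37.6, 34.0 and 30.9 CPM in miR-21-KD replicates 1 to 4. The groups overlapped, and the miR-21-KD group held both the lowest and the highest tumour. The means were 33.0 ± 1.83 and 32.8 ± 3.80 CPM (SD, n = 4 each), with a log2 fold change of -0.01 (SE 0.10, 95% interval -0.24 to 0.23, adjusted p = 0.958, edgeR). Its sign turned with the scaling, to 0.034 with upper-quartile scaling, and the interval allows a log2 change of up to 0.23 upwards.

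Snai2 encodes Slug, the paralogue of Snail. Snai2 (Entrez 20583, GRCm38 chr16:14705852-14709385, plus strand) had 4.50, 2.23, 2.52 and 2.37 CPM in VC and 13.7, 5.58, 6.01 and 7.36 CPM in miR-21-KD replicates 1 to 4. Replicate 1 was the highest of each group, and the groups did not overlap. The means were 2.91 ± 1.07 and 8.15 ± 3.75 CPM (SD, n = 4 each), with a log2 fold change of 1.48 (SE 0.36, 95% interval 0.66 to 2.30, adjusted p = 0.0154, edgeR), a 2.79-fold rise. Snai2 rested on 28 to 169 reads per tumour, and its adjusted p reached 0.0496 at most when each tumour was left out in turn.

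Zeb1 and Zeb2 encode zinc finger homeobox repressors of epithelial genes. Zeb1 (Entrez 21417, GRCm38 chr18:5591860-5775467, plus strand) had 29.9, 25.1, 15.9 and 21.8 CPM in VC and 46.5, 25.5, 26.9 and 28.1 CPM in miR-21-KD replicates 1 to 4. The groups overlapped, with VC replicate 1 above 3 of the miR-21-KD tumours and miR-21-KD replicate 1 above all others. The means were 23.2 ± 5.86 and 31.7 ± 9.89 CPM (SD, n = 4 each), with a log2 fold change of 0.45 (SE 0.25, 95% interval -0.11 to 1.01, adjusted p = 0.168, edgeR). Blocking on the replicate number gave a log2 fold change of 0.44 and an adjusted p of 0.0449 (edgeR). The call of Zeb1 thus depended on a pairing that the labels do not state.

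Zeb2 (Entrez 24136, GRCm38 chr2:44983632-45117395, minus strand) had 186, 133, 124 and 129 CPM in VC and 271, 187, 226 and 187 CPM in miR-21-KD replicates 1 to 4. The groups did not overlap, but VC replicate 1 lay just under miR-21-KD replicates 2 and 4. The means were 143 ± 28.8 and 218 ± 40.1 CPM (SD, n = 4 each), with a log2 fold change of 0.61 (SE 0.17, 95% interval 0.22 to 0.99, adjusted p = 0.0240, edgeR), a 1.52-fold rise. The adjusted p of Zeb2 was 0.0673 without VC replicate 2, 0.0717 without VC replicate 3, 0.0558 without miR-21-KD replicate 1 and 0.0581 without miR-21-KD replicate 3. Zeb2 shares exonic bases with the antisense gene Zeb2os and Zeb1 with Gm10125 on the opposite strand, and reads of these overlaps cannot be told apart.

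Twist1 encodes a basic helix-loop-helix factor of mesenchymal cells. Twist1 (Entrez 22160, GRCm38 chr12:33957671-33959829, plus strand) had 42.7, 50.2, 48.9 and 34.7 CPM in VC and 15.2, 31.5, 23.9 and 21.1 CPM in miR-21-KD replicates 1 to 4. The groups did not overlap, with VC replicate 4 and miR-21-KD replicate 2 closest to each other, as for Vim. The means were 44.1 ± 7.05 and 22.9 ± 6.77 CPM (SD, n = 4 each), and Twist1 fell by 0.94 on the log2 scale (SE 0.22, 95% interval -1.44 to -0.45, adjusted p = 0.0133, edgeR). The call held without each tumour in turn, with an adjusted p of at most 0.0422.

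**Figure D2:**
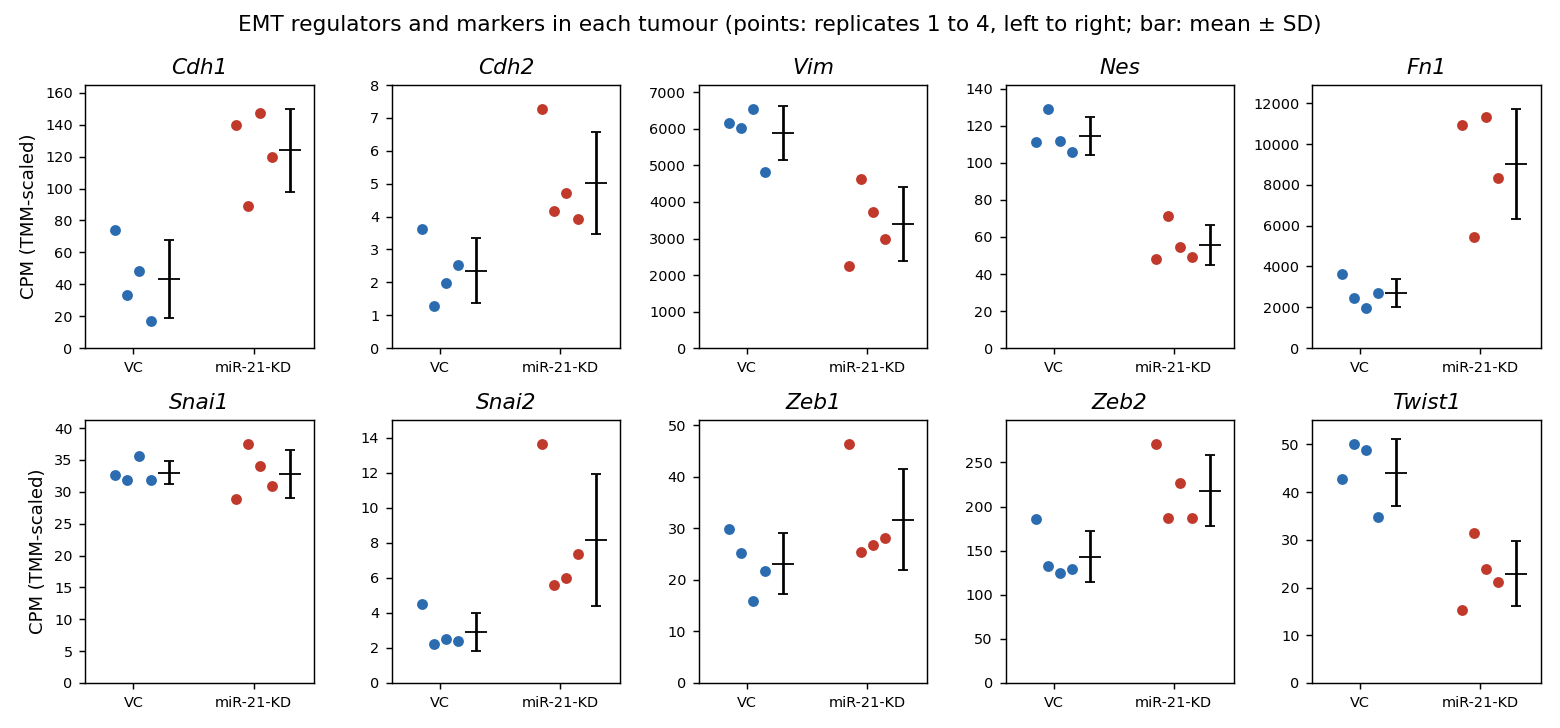
Level of each member in CPM (vertical axes, from 0, a separate scale in each panel) in VC and miR-21-KD tumours; points are replicates 1 to 4 from left to right and bars are the mean ± SD. The groups separate in 8 panels and overlap for Snai1 and Zeb1, where miR-21-KD replicate 1 reaches 46.5 CPM.

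The miR-21-KD tumours differed in how far they lay from the VC mean. Among the 8 members that passed the test, miR-21-KD replicate 1 was the farthest for 6, and replicate 3 was the farthest for Cdh1 and Fn1. The nearest was replicate 2 for 7 members and replicate 4 for Cdh2. The biological coefficient of variation fitted by edgeR was 0.380 for Cdh1, 0.362 for Snai2 and 0.336 for Cdh2, against a median of 0.184 over all genes, and it was 0.148 for Nes and 0.127 for Snai1.

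Levels of different genes were compared per kilobase of exon (CPM per kb, exons of GENCODE M21). The lengths join all annotated exons of a gene, and the annotation behind the counts is not given. Levels of different genes therefore compare only roughly. In VC tumours Vim had the highest level of the 10 members at 1241 ± 156 CPM per kb, above Fn1 at 230.0 ± 59.6 (SD, n = 4). In miR-21-KD tumours Fn1 stood at 772 ± 232 and Vim at 717 ± 216 CPM per kb, which lie within their spread of each other. Cdh1 moved from 9.45 ± 5.33 to 27.1 ± 5.67 CPM per kb, the third level of the 10 in miR-21-KD tumours. The factor genes Twist1, at 27.1 ± 4.33, and Snai1, at 20.4 ± 1.13 CPM per kb, exceeded Zeb2, Zeb1 and Snai2 in VC tumours. Cdh2 had the lowest level in both groups, at 0.291 ± 0.122 and 0.622 ± 0.191 CPM per kb, and Cdh1 exceeded it in every tumour.

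Ratios of counts within a tumour do not depend on the scaling of libraries. The ratio of Cdh1 to Vim was 0.0121, 0.00555, 0.00740 and 0.00347 in VC and 0.0622, 0.0192, 0.0394 and 0.0403 in miR-21-KD replicates 1 to 4, without overlap. The ratio of Cdh1 to Cdh2 was 20.5, 26.2, 24.6 and 6.61 in VC and 19.2, 21.4, 31.3 and 30.6 in miR-21-KD tumours, and the groups overlapped. The ratio of Zeb1 to Zeb2 ranged from 0.128 to 0.189 in VC and from 0.119 to 0.171 in miR-21-KD tumours, again with overlap. Since Cdh1 was higher and Vim lower in each miR-21-KD tumour, their ratio had to separate the groups, whereas the genes of the other ratios had fold changes of the same sign.

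**Figure D3:**
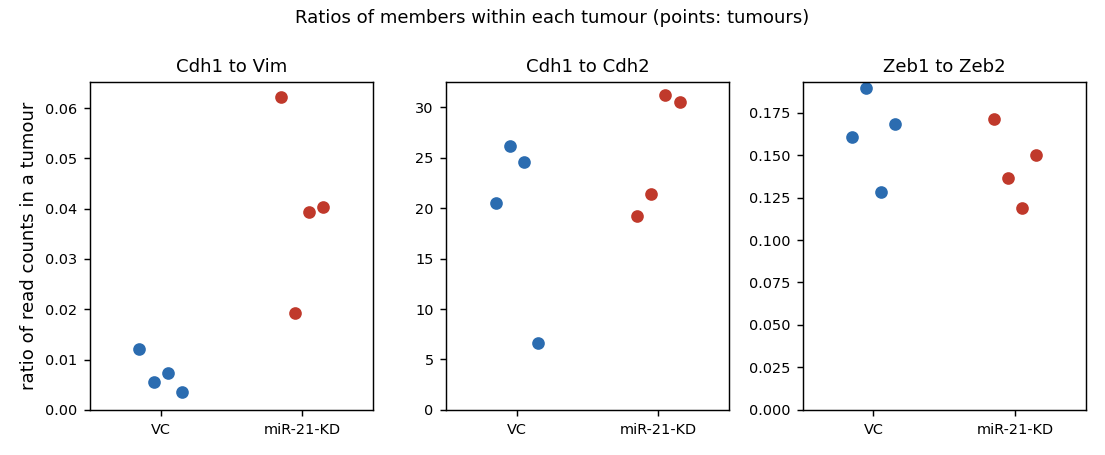
Ratio of read counts of Cdh1 to Vim, Cdh1 to Cdh2 and Zeb1 to Zeb2 (vertical axes, from 0) in each VC and miR-21-KD tumour (points). The groups separate for Cdh1 to Vim, with VC tumours up to 0.0121 and miR-21-KD tumours from 0.0192, and overlap for the other ratios.

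Genes around the members were described by lists written from general knowledge, by their counts and medians. They are to be read against all tested genes, of which 19.6% were higher and 19.5% lower, with a median log2 fold change of -0.01. Epithelial-state regulators, factors that maintain epithelial identity, had 9 of 14 tested genes higher (64.3%) and 0 lower, with a median log2 fold change of 1.79. Foxa1, a forkhead factor of luminal mammary cells, rose by 3.47 on the log2 scale (SE 0.64, adjusted p = 0.00760, edgeR), from 3.01 ± 2.22 to 33.7 ± 18.7 CPM (SD, n = 4 each). Esrp2, a regulator of epithelial splicing, rose by 1.75 on the log2 scale (adjusted p = 0.00988). Ovol1, a zinc finger repressor of mesenchymal genes, also passed as higher (adjusted p = 0.0109) but rests on 3 to 36 reads per tumour. Of the 9 genes, 3 (Ovol1, Ovol2 and Spdef, listed here for their counts) had under 10 reads in some VC tumours and passed the filter mainly through the miR-21-KD group, where they are high. With a minimum of 10 counts in each tumour 6 genes were higher. Without 1 tumour the higher calls of this list numbered 4 (VC replicate 2), 3 (VC replicate 3), 5 (miR-21-KD replicate 1), 4 (miR-21-KD replicate 3) or 5 (miR-21-KD replicate 4). Grhl3 was not tested.

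Epithelial adhesion genes had 11 of 25 tested members higher (44.0%, against 19.6% of all genes) and 2 lower (8.0%, against 19.5%), with a median log2 fold change of 0.85. Jup, which encodes the junction protein plakoglobin, rose by 0.80 on the log2 scale (adjusted p = 0.0144) and the small GTPase gene Rab25 by 2.60, with 6 to 201 reads per tumour (adjusted p = 0.0174, edgeR). The polarity gene Crb3 also passed as higher (adjusted p = 0.0149) but rests on 2 to 60 reads per tumour. Of the 11 higher genes 6, Crb3 and Rab25 among them, had under 10 reads in some tumours of VC and at least 10 in each of miR-21-KD, so that they passed the filter mainly through the group where they are high. Ppl, which encodes the desmosome-linked protein periplakin, fell by 2.03 on the log2 scale (SE 0.25, adjusted p = 0.00501), from 78.3 ± 22.1 to 19.2 ± 4.64 CPM (SD, n = 4 each). Ctnnd1, which encodes p120 catenin and binds E-cadherin, fell by 0.35 (adjusted p = 0.0409), and this call was lost without any 1 of VC replicates 1 to 3 or miR-21-KD replicates 1, 3 and 4 (adjusted p 0.0726 to 0.109) and with a minimum of 10 counts in each tumour (0.0616). Rab25 had an adjusted p of 0.0513 without VC replicate 3. Higher calls numbered 5 without VC replicate 2, 3 without VC replicate 3, 5 and 4 without miR-21-KD replicates 1 and 4, and 6 without miR-21-KD replicate 3. Lower calls numbered 5 without VC replicate 4, 4 without miR-21-KD replicate 2, and 1 without any other tumour. With the replicate block 6 adhesion genes (24.0%, against 22.1% of all genes in that fit) were lower, with DESeq2 or scaling by library size 4, and with a minimum of 10 counts in each tumour 5 were higher and 1 lower. Cdh16 had no counts and was not tested.

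Mesenchymal genes had 18 of 30 members higher, against 19.6% of all genes, and 4 lower (13.3%, against 19.5%), with a median log2 fold change of 0.84. Ccn2, a secreted matricellular protein gene induced by TGF-β, rose by 1.20 (SE 0.17, adjusted p = 0.00558), from 72.1 ± 17.7 to 166 ± 18.3 CPM (SD, n = 4 each). The fibronectin receptor subunit gene Itga5 rose by 0.69 (adjusted p = 0.00602) and the lysyl oxidase gene Loxl2 by 1.58 on the log2 scale (adjusted p = 0.00827, edgeR). The actin-associated gene Tpm1 fell by 0.59 (adjusted p = 0.00635), the metastasis-associated calcium-binding protein gene S100a4 by 1.85 (adjusted p = 0.0104) and the receptor tyrosine kinase gene Axl by 0.70 on the log2 scale (adjusted p = 0.0175). Axl had an adjusted p of 0.0534 without VC replicate 3 and 0.0501 without miR-21-KD replicate 4. Higher calls numbered 10 without VC replicate 3, and lower calls numbered 2 without VC replicate 3 or miR-21-KD replicate 4.

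Receptors and binding partners of fibronectin, of which 5 are also on the mesenchymal list, had 7 of 12 members higher (58.3%, against 19.6% of all genes) and 0 lower, with a median log2 fold change of 0.67. Of the 7 genes 1, Itgb6, had under 10 reads in each VC tumour and passed the filter through the miR-21-KD group. Beside Itga5, the transglutaminase gene Tgm2 rose by 0.72 (adjusted p = 0.00815) and the elastic fibre glycoprotein gene Emilin1 by 1.48 on the log2 scale (adjusted p = 0.0112, edgeR). Higher calls numbered 4 without VC replicate 2 or miR-21-KD replicates 1 or 3, and 3 without VC replicate 3, and 1 gene was called lower without miR-21-KD replicate 2.

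Other EMT transcription factors had 2 of 16 tested members higher (12.5%) and 4 lower (25.0%), with a median log2 fold change of -0.28. Over all genes the shares were 19.6% and 19.5%. The T-box factor gene Tbx3 rose by 1.61 on the log2 scale (adjusted p = 0.0126, edgeR). The Krüppel-like factor gene Klf8 also passed as higher (adjusted p = 0.0146) but rests on 3 to 46 reads per tumour and passed the filter mainly through the miR-21-KD group. The forkhead factor gene Foxc1 fell by 1.82 (SE 0.36, adjusted p = 0.00914), from 73.0 ± 10.6 to 20.6 ± 11.0 CPM (SD, n = 4 each). Hmga2, which encodes an architectural chromatin protein, fell by 1.51 on the log2 scale (adjusted p = 0.0257). The call of Hmga2 was lost without VC replicates 2 or 3 or miR-21-KD replicates 3 or 4, with adjusted p-values of 0.0546 to 0.0724. Lower calls numbered 1 without each of these 4 tumours, 7 without miR-21-KD replicate 2, and 8 with the replicate block (8 of 16, against 3176 of 14382 genes or 22.1% in that fit), and 1 gene was higher with a minimum of 10 counts in each tumour. Snai3 and Gsc were not tested.

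EMT-inducing ligands and receptors had 4 of 19 tested members higher and 3 lower, with a median log2 fold change of 0.28, which is close to the background of 19.6% and 19.5%. The ligand gene Wnt5a rose by 1.45 (SE 0.20, adjusted p = 0.00520), from 9.24 ± 2.18 to 25.3 ± 4.53 CPM (SD, n = 4 each). The receptor gene Egfr rose by 1.48 (adjusted p = 0.0187) and the gene of the scatter factor Hgf by 1.32 on the log2 scale (adjusted p = 0.0229, edgeR). The TGF-β receptor gene Tgfbr1 fell by 0.75 (SE 0.10, adjusted p = 0.00501) and the gene of its signal transducer Smad3 fell by 0.87 on the log2 scale (SE 0.14, adjusted p = 0.00603). Met, which encodes the receptor of Hgf, fell by 0.79 (adjusted p = 0.0250).

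Egfr had an adjusted p of 0.0569 without VC replicate 3, Hgf had 0.0663 without VC replicate 3, 0.0575 without miR-21-KD replicate 1 and 0.0566 without miR-21-KD replicate 3. Met was lost without any 1 of VC replicates 2 and 3 and miR-21-KD replicates 1, 3 and 4, with adjusted p-values from 0.0604 to 0.0707. Higher calls of ligands and receptors numbered 7 without VC replicate 1, 1 without VC replicate 3, 2 without miR-21-KD replicates 1 or 3, 7 with the replicate block (36.8%, against 23.0% of all genes in that fit) and 8 with DESeq2. Egf was not tested.

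Intermediate filament and cross-linking genes other than Vim and Nes had 1 of 7 tested members higher and 1 lower (14.3% each). The shares are near the 19.6% and 19.5% of all genes, and the median log2 fold change was -0.41. The muscle filament gene Des, which is also on the mesenchymal list, rose by 1.32 (adjusted p = 0.0120) and the nuclear lamin gene Lmnb1 fell by 0.50 on the log2 scale (adjusted p = 0.0203, edgeR). The call of Lmnb1 was lost without VC replicates 2 or 3 or miR-21-KD replicate 4, with adjusted p-values from 0.0512 to 0.0564. Lower calls numbered 0 without each of these 3 tumours and 3 without miR-21-KD replicate 2, and higher calls numbered 2 without VC replicate 1. Gfap, Nefl, Nefm and Ina were not tested.

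**Figure D4:**
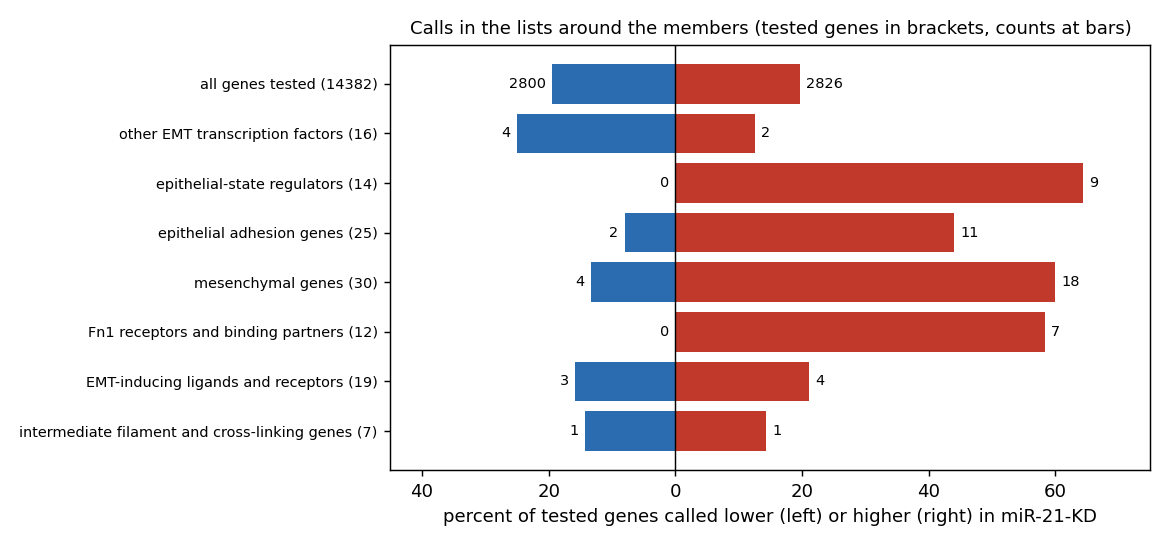
Percent of tested genes called lower (left of 0) and higher (right of 0) in miR-21-KD tumours for all 14382 tested genes and for 7 lists around the members, with counts at the bars. Epithelial-state regulators (9 higher, 0 lower) and mesenchymal genes (18 higher, 4 lower) both lean to the right, while other EMT transcription factors (2 higher, 4 lower) do not.

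Markers of host cell types that also express members moved with the groups, where 19.6% of all tested genes were higher. Of 8 fibroblast markers 7 were higher and 0 lower, and their summed level was 3041 to 8095 CPM in VC and 10508 to 23676 CPM in miR-21-KD tumours, without overlap. The highest sum was in miR-21-KD replicate 1, which also had the highest Cdh2, Snai2, Zeb1 and Zeb2 and the lowest Vim, Nes and Twist1. The fibroblast receptor gene Pdgfra was the marker not called, with a log2 fold change of -0.36 (SE 0.20, adjusted p = 0.176, edgeR), and it was called lower without miR-21-KD replicate 1 (log2 fold change -0.59, adjusted p = 0.0193). Of 6 pericyte and smooth muscle markers 3 were higher, with sums of 139.7 to 198 and 219 to 406 CPM. Of 8 macrophage and monocyte markers 7 were higher, with sums of 2726 to 3946 and 5453 to 8488 CPM, and all 5 adipocyte markers were higher, with sums of 85.2 to 319.8 and 428 to 1124 CPM. The sums of these 4 lists did not overlap between groups, none of their markers was at 0 in all tumours, and their part in the values of the members was not tested. The 5 members that were higher, Cdh1 included, thus moved in the same direction as the fibroblast and macrophage sums, and Vim, Nes and Twist1 in the opposite one.

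The sums of the remaining host lists overlapped between groups. T cell markers, 6 of 8 higher, summed to 37.7 to 142 CPM in VC and 126 to 267 CPM in miR-21-KD tumours. Endothelial cell markers, 1 of 8 higher, summed to 428 to 736 and 619 to 878 CPM. Schwann cell and nerve markers, 2 of 5 tested higher, summed to 43.5 to 53.2 and 47.9 to 113 CPM. B cell markers (0 of 5 called) summed to 16.6 to 193 and 39.8 to 117 CPM, and neutrophil markers (0 of 6 called) to 294 to 796 and 384 to 674 CPM. Skeletal muscle markers, of which 2 of 6 were tested and 1 was lower, summed to 5.56 to 10.2 and 2.50 to 6.22 CPM. In none of these lists was a marker at 0 in all tumours, and their part in the members' values was not tested.

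Mammary epithelium markers were set beside Cdh1. Of 7 markers 5 were higher (71.4%, against 19.6% of all genes) and 1 lower, and the summed level overlapped between groups, at 1291 to 2221 CPM in VC and 947 to 1919 CPM in miR-21-KD tumours. The keratin genes Krt19 (log2 fold change 3.60, adjusted p = 0.00688), Krt14 (3.08, 0.0110), Krt5 (2.90, 0.0284) and Krt7 (1.26, 0.0188) and the adhesion gene Epcam (1.93, 0.0182) were higher in the edgeR test. Krt18, the most abundant marker in VC tumours, fell by 1.15 on the log2 scale (SE 0.37, adjusted p = 0.0374), and its partner Krt8 had a log2 fold change of -0.88 (SE 0.37, adjusted p = 0.0870). Krt8 passed as lower with the replicate block (adjusted p = 0.0413), with DESeq2 (0.0405) and without miR-21-KD replicate 2 (0.0432). Krt8 and Krt18 thus had negative log2 fold changes beside a rise of Cdh1, whereas Krt19, Krt14, Krt5, Krt7 and Epcam rose with it. The part of epithelial cell content in the rise of Cdh1 was not tested. The calls of Krt18 and Krt5 were each lost without several tumours (adjusted p 0.0600 to 0.0941 for Krt18 without VC replicates 1 to 3 or miR-21-KD replicates 3 or 4, and 0.0548 to 0.0743 for Krt5 without VC replicates 2 to 4 or miR-21-KD replicates 1, 3 or 4). Without the filter on low counts the adjusted p was 0.0501 for Krt18 and 0.0565 for Krt5, and with limma-voom it was 0.0905 for Krt5. Epcam had an adjusted p of 0.0526 without VC replicate 3, and Krt7 had 0.0511 and 0.0507 without miR-21-KD replicates 3 and 4.

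**Figure D5:**
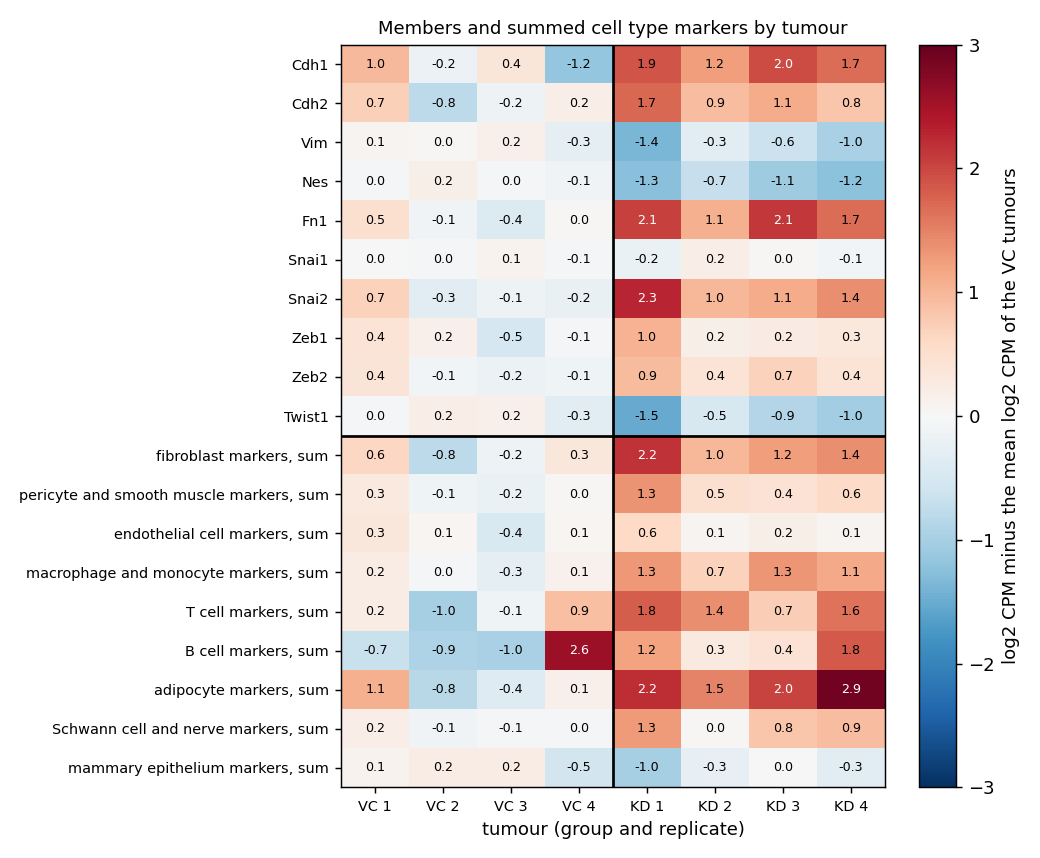
Log2 CPM of each member and of the summed markers of 9 cell types in every tumour, as the difference from the mean log2 CPM of the VC tumours (colour scale and printed values). Fibroblast, macrophage and adipocyte sums are above the VC mean in all miR-21-KD tumours, as are Cdh1, Fn1, Snai2 and Zeb2, while Vim, Nes and Twist1 are below it.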

How the data were processed

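RNA sequencing of 8 whole primary tumours, 4 VC and 4 miR-21-KD, was analysed. The authors deposited raw read counts per gene by Entrez identifier, without normalization, with 1 column per tumour. The submitters' processing notes name the build mm10, Subread, featureCounts, limma and edgeR. Their versions, the annotation and the strand setting of the counting are not given in the sources used here. Symbols from the reference annotation matched 25275 of 27179 identifiers, and 237 tested genes had none.

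The groups were compared with edgeR 4.0.16 under R 4.3.3 (filterByExpr with minimum count 10 and minimum total 15, TMM scaling, robust quasi-likelihood test), on 14382 genes with 99.852% of all counts, and 12797 genes were left out. Benjamini-Hochberg adjustment ran over all genes tested, and an adjusted p under 0.05 was called at any fold change. Standard errors were derived from the estimate and its F statistic, and CPM were scaled with TMM factors. Gene positions, exon lengths and overlaps came from GENCODE M21 (GRCm38, the assembly of mm10), and sequences from RefSeq and GENCODE.

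The 10 members and the lists were chosen with earlier results of these data known, and the lists were written from general knowledge. Named were all members, the 3 genes of each list with the smallest adjusted p in each direction among those past the threshold, and the marker genes set beside a member, except for 1 gene that is not reported here. The lists are the 7 groups of genes around the members and the 11 groups of cell type markers given in the text, and no set test was run on them. The test was checked on simulated counts.

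In the labels, the tumours of each group carry the numbers 1 to 4. After removal of the group means, tumours of the same number correlated at 0.272, 0.421, 0.175 and 0.376. On these correlations the numbers were taken to pair the tumours. Other combinations had a mean of -0.105, but removal of the group means largely fixes this value from the same-number correlations. It is therefore no separate background. The pairing is an assumption drawn from the data, since the labels name no shared litter or day. Values are reported without the replicate block, and with it where it changes a call. The alternatives were DESeq2 1.42.0, limma-voom (limma 3.58.1), upper-quartile scaling, DESeq2 size factors in edgeR, library size alone, no filter, a minimum of 10 counts in each tumour, the replicate block, an adjusted p under 0.01 and each tumour left out in turn.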

Additional observations from a re-analysis of the deposited data

Results flagged for a closer look

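Of 42 groups of 4 tumours examined, over the members and the summed cell type markers, 6 held a tumour far from the other 3 by Dixon's test of the gap over the range. Chance gives about 1 such group in 20. In miR-21-KD, replicate 1 stood above the others for Zeb1, at 46.5 CPM. In VC, replicate 1 stood above the others for Zeb2, at 186 CPM, and for Snai2, at 4.50 CPM. The summed markers of pericytes and smooth muscle reached 406 CPM and those of endothelial cells 878 CPM in miR-21-KD replicate 1. The summed B cell markers reached 193 CPM in VC replicate 4.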

How the results depend on the processing

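DESeq2, limma-voom, upper-quartile scaling, DESeq2 size factors in edgeR, library size alone, no filter and a minimum of 10 counts in each tumour changed no call of a member. Among the members, the replicate block changed only Zeb1 (log2 fold change 0.44, adjusted p = 0.0449) and, among the lists, gave 8 other EMT transcription factors and 6 epithelial adhesion genes lower and 7 ligands and receptors higher. It moved no other list count by over 1.5 times and, of the named genes that are no members, changed the call of Krt8 only. The sign of Snai1 turned to 0.034 with upper-quartile scaling, 0.010 with DESeq2 or its size factors, and 0.042 with a minimum of 10 counts in each tumour. That minimum leaves fewer genes, and it gave 1 other EMT transcription factor higher, 5 adhesion genes higher and 1 lower. DESeq2 gave 4 adhesion genes lower and 8 ligands and receptors higher, and library size alone gave 4 adhesion genes lower. The cause of these differences was not tested.

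At an adjusted p under 0.01, 670 genes were higher and 756 lower, with 1 member higher (Fn1) and 1 lower (Nes). The lists then had 0 higher and 1 lower (other EMT transcription factors), 2 higher (epithelial-state regulators), 0 higher and 1 lower (adhesion), 4 higher and 1 lower (mesenchymal), 2 higher (fibronectin partners), 1 higher and 2 lower (ligands and receptors), and 0 higher and 0 lower (intermediate filament).

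With each tumour left out in turn, 1449 to 3290 genes were higher and 1487 to 3550 lower, with the lowest numbers without VC replicate 3. Members numbered 2 to 5 higher and 2 to 3 lower. Log2 fold changes ranged from 1.25 to 1.91 for Cdh1, 0.86 to 1.38 for Cdh2, -0.99 to -0.64 for Vim and 0.48 to 0.76 for Zeb2. The range was -0.085 to 0.050 for Snai1 and 0.21 to 0.60 for Zeb1, with the value of 0.21 without miR-21-KD replicate 1. List counts ranged from 1 to 7 lower for other EMT transcription factors, 3 to 11 higher for epithelial-state regulators, 3 to 13 higher and 1 to 5 lower for adhesion, 10 to 19 higher and 2 to 6 lower for mesenchymal genes, 3 to 8 higher and 0 to 1 lower for fibronectin partners, 1 to 7 higher for ligands and receptors, and 1 to 2 higher and 0 to 3 lower for intermediate filament genes. Few reads lie behind Cdh2 and Snai2, with 16 to 90 and 28 to 169 per tumour, and fewer behind Ovol1, Crb3 and Klf8, with at most 36, 60 and 46.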
